A study of Mesocricetus auratus with 8 samples.

Results

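The dystrophin glycoprotein complex was examined through 9 genes chosen by symbol, Dmd, Utrn, Dag1, Sgca, Sgcb, Sgcd, Sspn, Dtna and Sntb1, of 17590 genes with values. RNA-seq libraries of primary satellite cells (SCs), the stem cells of skeletal muscle, were compared between 4 control libraries and 4 cold libraries, numbered 1 to 4 in each group. The SCs came from hindlimb muscles of wild-type, sexually mature male Syrian hamsters (Slc:Syrian) and were enriched by pre-plating and replating. Both groups were grown in growth medium (GM) at 37°C and, by the series' design, spent their last 24 h at that temperature in GM with HEPES (GM-HEPES). RNA of the control group was taken then, and that of the cold group after a further 24 h at 4°C in the same medium. Cold libraries were thus collected 24 h later, no library kept at 37°C for that time was used here, and cold and elapsed time cannot be told apart. By their titles all controls were taken on day 3, but their treatment labels differ and state 3 days at 37°C for the first control, 4 for the second, 5 for the third and 6 for the fourth. The paper calls the RNA-seq samples biological replicates, 4 per group, without stating for them whether each was an animal or a culture. Nothing in the labels says that the libraries came from separate animals or cultures, so p-values measure the spread between these libraries.

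The complex spans the membrane of muscle cells. Dystrophin, or its homologue utrophin, binds cytoskeletal actin inside the cell and dystroglycan at the membrane, and dystroglycan binds laminin outside. Sarcoglycans and sarcospan form a subcomplex beside dystroglycan, and dystrobrevins and syntrophins attach to dystrophin on the cytoplasmic side and recruit signalling proteins. Loss of dystrophin causes Duchenne muscular dystrophy, and the cardiomyopathic strains of the Syrian hamster lack delta-sarcoglycan. The wild-type animals used here are not of those strains by their label.

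The libraries held between 16530747 and 18533801 expected counts. All 8 satellite cell and myoblast markers examined had at least 1 TPM in some library, and their summed level was 1830 to 2260 TPM in the control group and 1760 to 2100 TPM in the cold group. This sum was lower in 4 of 4 pairs with overlapping groups. In the blocked edgeR fit described below, 3 of the 8 markers were lower and 1 was higher. That fit called 4.07% of all genes lower and 1.26% higher. Itga7, 1 of these 8 markers, is also among the pathway genes below. The part of these markers in the members' levels was not tested. The 8 early differentiation markers (Myog, Mymk, Mymx, Mef2c, Ckm, Acta1, Myh3 and Tnnt2) summed to 1710 to 3280 TPM in the control group and 900 to 1540 TPM in the cold group. The groups did not overlap in this sum, and 8 of 8 of these markers were lower at an adjusted p under 0.05 in that fit. Control replicates 1 and 2 averaged 3250 TPM for this sum and control replicates 3 and 4 averaged 1760 TPM. The 7 fibroblast markers with values summed to 1220 to 1740 TPM in the control group and 1200 to 1690 TPM in the cold group, and 0 of 7 passed the test. Macrophage markers summed to at most 55.7 TPM, smooth muscle and pericyte markers to at most 92.7 TPM, and endothelial and Schwann cell markers to at most 3.91 TPM, each with overlapping groups. The macrophage and leukocyte sum was lower in 0 of 4 pairs and averaged 27.4 TPM in control replicates 1 and 2 and 47.2 TPM in control replicates 3 and 4, and the fibroblast sum was lower in 2 of 4 pairs and averaged 1230 and 1610 TPM in these sets. No marker on these lists was at 0 in all libraries. Replicates 1 and 2 stood apart from replicates 3 and 4 in both groups, so fold changes of the members and pathway genes called in the blocked fit are also given within each of these sets. In such bulk libraries, fewer cells of a type and less RNA per cell cannot be told apart.

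Among the 9 members, the lower levels after cold exposure lay in alpha-dystrobrevin, beta-1-syntrophin and alpha-sarcoglycan, with a small difference in beta-sarcoglycan, while dystrophin, utrophin, dystroglycan, delta-sarcoglycan and sarcospan stayed within 0.12 of no change on the log2 scale. Mean Dtna was 41.4% of its control level in the cold libraries, Sntb1 53.2%, Sgca 72.5% and Sgcb 87.3%. Without a term for the replicate number, edgeR's quasi-likelihood test called 0 of the 9 members at an adjusted p under 0.05 in either direction, where it called 0.072% of the 12506 genes tested as lower and 0% as higher. At an unadjusted p under 0.05 it gave 3 members (Dtna, Sgca and Sntb1), beside 6.7% of all genes, and DESeq2 called 1 member (Dtna), where it called 0.924% of genes as lower and 0.0208% as higher. Libraries of the same number deviated together, and once edgeR was given the replicate number as a block it called 4 members lower and 0 higher, against 4.07% of genes lower and 1.26% higher. These were Dtna, Sntb1, Sgca and Sgcb. With the study's further threshold, an absolute log2 fold change of 1 or more, the numbers were 0 members without and 1 member (Dtna) with the block, beside 0.04% and 0.808% of genes lower and 0% and 0.04% higher. DESeq2 also called Dtna alone there, beside 0.472% of genes lower and 0% higher. The study counted Dtna among its differentially expressed genes on these same libraries, so its direction is not independent evidence.

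**Figure D1:**
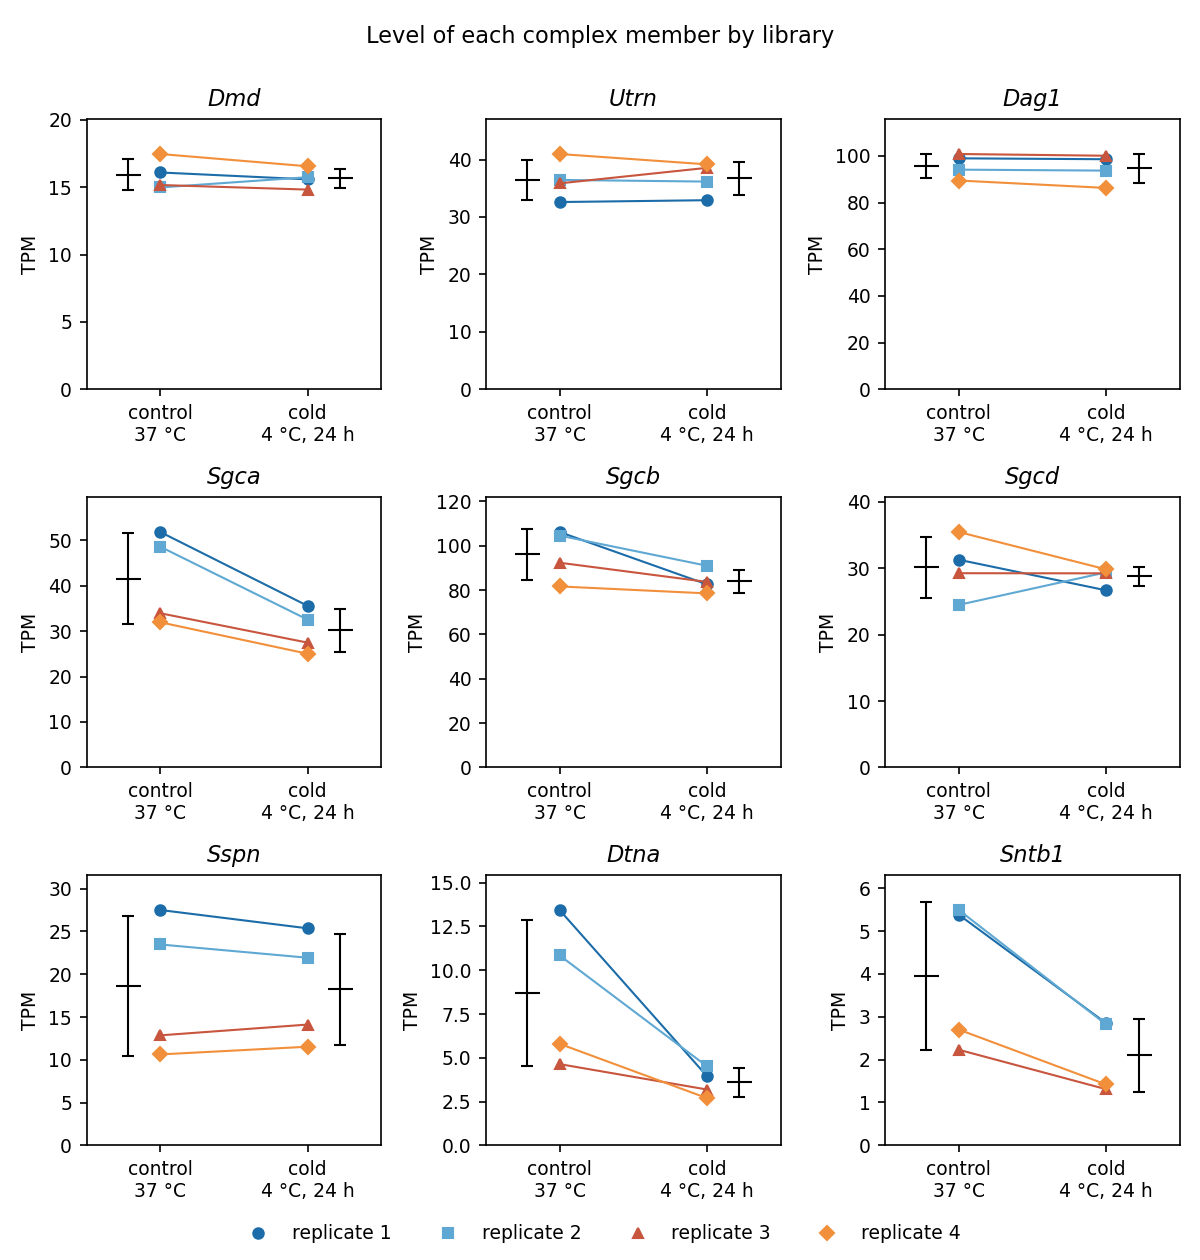
TPM (vertical axes, from 0) of the 9 members in each library, with control at 37°C on the left and cold at 4°C on the right of each panel. Lines join libraries with the same replicate number, and black bars are the mean ± SD of 4 libraries. All 4 lines fall for Dtna, Sntb1, Sgca and Sgcb, and those of Sspn run nearly level with replicates 1 and 2 above replicates 3 and 4.

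Levels were compared between members by TPM, which is per transcript length. In control libraries Sgcb (96.2 ± 11.5 TPM, SD, n = 4) and Dag1 (95.8 ± 5.11) were the most abundant, and their ranges overlapped. Sgca (41.6 ± 10.1), Utrn (36.5 ± 3.44), Sgcd (30.1 ± 4.56), Sspn (18.6 ± 8.16) and Dmd (15.9 ± 1.13) followed, and each neighbour in this order overlapped the next. Dtna (8.68 ± 4.16) and Sntb1 (3.95 ± 1.73) overlapped each other and lay below the other members in every control library. After cold exposure Dag1 (94.6 ± 6.21) stood above Sgcb (84.0 ± 5.2), and Utrn (36.7 ± 2.83) above Sgca (30.2 ± 4.78), with overlapping ranges in both cases. Sgcd (28.8 ± 1.43) overlapped Sgca but not the next member, Sspn (18.2 ± 6.49). Sspn overlapped Dmd (15.7 ± 0.709), and Dtna (3.59 ± 0.807) and Sntb1 (2.1 ± 0.85) were again the lowest, overlapping each other only.

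Dystroglycan, which the single gene Dag1 (NCBI Gene 101838330) encodes as the receptor for laminin, hardly varied. Dag1 had 98.94, 94.09, 100.79 and 89.43 TPM in control replicates 1 to 4 and 98.55, 93.68, 100.05 and 86.26 TPM in cold replicates 1 to 4. The groups overlapped almost fully, although each cold library was slightly below its control of the same number. Its log2 fold change was −0.038 (edgeR, standard error 0.0675, 95% confidence interval −0.19 to 0.11, adjusted p = 0.999), and with the block −0.037 (interval −0.11 to 0.03, adjusted p = 0.623).

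Dystrophin and utrophin, the large actin-binding proteins of the complex, also had overlapping groups and small fold changes. Dmd (101825505) had 16.09, 14.98, 15.16 and 17.46 TPM in the control libraries and 15.58, 15.74, 14.82 and 16.55 TPM in the cold ones. The groups overlapped, with 3 of 4 cold libraries below their control. The fold change was −0.12 on the log2 scale (edgeR, interval −0.25 to 0.02, adjusted p = 0.845), and with the block −0.12 (interval −0.21 to −0.02, adjusted p = 0.175). On log2 TPM the difference was smaller, −0.021 with a pseudocount of 0.1 (limma, adjusted p = 1.0). Utrn (101842481) ranged from 32.6 to 40.96 TPM in the control group and from 32.92 to 39.16 TPM in the cold group, with 2 of 4 pairs lower. For Utrn the log2 fold change was −0.013 (edgeR, interval −0.18 to 0.16, adjusted p = 0.999), and with the block −0.012 (interval −0.09 to 0.06, adjusted p = 0.914).

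Utrophin is known as the embryonic and non-muscle counterpart of dystrophin, and its level exceeded that of Dmd in every library. The TPM ratio of Utrn to Dmd was 2.03, 2.43, 2.36 and 2.35 in control replicates 1 to 4 and 2.11, 2.3, 2.6 and 2.37 in cold replicates 1 to 4. The groups overlapped, and the mean log2 ratio was 1.19 ± 0.12 in control and 1.23 ± 0.12 in cold libraries (SD, n = 4). The difference of 0.03 was smaller than the spread (exact two-sided permutation test, p = 0.743, also 0.743 when adjusted over the 3 ratios tested).

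Sarcoglycans are single-pass membrane glycoproteins that in striated muscle form a complex of several subunits, and the fold changes of the 3 members among them were unequal in size after cold exposure. Sgca (101822397), alpha-sarcoglycan, is largely restricted to striated muscle. It had 51.85, 48.61, 33.95 and 31.96 TPM in the control libraries and 35.58, 32.55, 27.48 and 25.03 TPM in the cold libraries. Cold replicates 1 and 2 were above control replicate 4, so the groups overlapped, but each cold library was below its control. The log2 fold change was −0.49 (edgeR, standard error 0.199, interval −0.93 to −0.04, adjusted p = 0.694). With the block it was −0.47 (edgeR, standard error 0.0672, interval −0.61 to −0.33, adjusted p = 1.03e-04).

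Sgcb (101831878), beta-sarcoglycan, is expressed in many tissues. It had 106.21, 104.59, 92.35 and 81.65 TPM in the control libraries and 82.61, 90.99, 83.7 and 78.51 TPM in the cold libraries. The groups overlapped through control replicate 4, and 4 of 4 cold libraries were below their controls, by least in replicate 4. Its log2 fold change was −0.21 (edgeR, interval −0.45 to 0.03, adjusted p = 0.841), and with the block −0.21 (edgeR, standard error 0.0571, interval −0.33 to −0.09, adjusted p = 0.0418). The blocked call was lost when replicate 1, 2 or 3 was left out (edgeR adjusted p = 0.302, 0.184 and 0.0724), and DESeq2 with the block gave an adjusted p of 0.275.

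Sgcd (101837953), delta-sarcoglycan, which pairs with the beta subunit in the core of the sarcoglycan complex, had 24.49 to 35.47 TPM in the control group and 26.68 to 29.84 TPM in the cold group. The cold values lay inside the control range, and 3 of 4 pairs were lower. The fitted log2 fold change was −0.074 (edgeR, interval −0.31 to 0.16, adjusted p = 0.999), and with the block −0.07 (interval −0.24 to 0.10, adjusted p = 0.709).

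Sspn (101835685), sarcospan, a tetraspanin-like protein that stabilizes the sarcoglycans at dystroglycan, differed far more between replicates than between the groups. It had 27.51, 23.48, 12.86 and 10.63 TPM in the control libraries and 25.37, 21.93, 14.12 and 11.53 TPM in the cold libraries. Replicates 1 and 2 were higher than replicates 3 and 4 in both groups with no overlap, while control and cold overlapped almost fully and 2 of 4 pairs were lower. Its log2 fold change was −0.064 (edgeR, interval −0.87 to 0.75, adjusted p = 0.999). With the block the interval narrowed to −0.15 to 0.09 around −0.032 (edgeR adjusted p = 0.832).

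Sgce (101827184), epsilon-sarcoglycan, which is not among the 9 members, is the broadly expressed relative that can take the place of alpha. It had 32.0 ± 2.08 TPM in the control group and 32.5 ± 4.22 TPM in the cold group (SD, n = 4), with an edgeR log2 fold change of 0.022 (interval −0.17 to 0.21, adjusted p = 0.999).

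The TPM ratio of Sgce to Sgca was 0.593, 0.63, 1.03 and 0.988 in control replicates 1 to 4 and 0.891, 0.912, 1.41 and 1.2 in cold replicates 1 to 4. It was higher after cold exposure in 4 of 4 pairs, and the groups overlapped because replicates 3 and 4 were high in both. Sgca itself was lower in 4 of 4 pairs, so this rise is not evidence apart from its level. The mean rise was 1.38-fold, a log2 difference of 0.46, which did not pass the exact two-sided permutation test (p = 0.171, 0.257 when adjusted over the 3 ratios). Permuting signs within the 4 pairs gave p = 0.125, the smallest that this exact test can reach with 4 pairs.

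Dtna (101827983), alpha-dystrobrevin, a dystrophin-related cytoplasmic protein that binds dystrophin and syntrophins, had the largest difference of the members. It had 13.44, 10.85, 4.64 and 5.8 TPM in the control libraries and 3.96, 4.52, 3.19 and 2.7 TPM in the cold libraries. All cold libraries were below all control libraries, by a narrow margin between cold replicate 2 and control replicate 3, and this held for 1 of the 9 members and 2.41% of all genes. No member had all cold libraries above all controls, as 2.27% of genes did. The log2 fold change was −1.22 (edgeR, standard error 0.343, interval −1.99 to −0.45, adjusted p = 0.36). With the block it was −1.19 (edgeR, standard error 0.132, interval −1.46 to −0.91, adjusted p = 5.17e-06), and DESeq2 without a block gave an adjusted p of 0.0275. Within pairs the log2 TPM ratio of cold to control was −1.76, −1.26, −0.54 and −1.10 for replicates 1 to 4.

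Sntb1 (101823679), beta-1-syntrophin, an adaptor that binds dystrobrevin and dystrophin and carries a PDZ domain for signalling proteins and channels, had the lowest level of the members. It had 5.38, 5.49, 2.23 and 2.7 TPM in the control libraries and 2.85, 2.82, 1.31 and 1.42 TPM in the cold libraries. Each cold library was well below its control of the same number, and the groups overlapped because cold replicates 1 and 2 exceeded control replicates 3 and 4. The log2 fold change was −0.94 (edgeR, standard error 0.388, interval −1.81 to −0.07, adjusted p = 0.698), and with the block −0.93 (standard error 0.0879, interval −1.12 to −0.75, adjusted p = 6.64e-07). It thus passed the adjusted threshold with the block but stopped short of the study's fold threshold.

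The related genes Dtnb and Sntb2 were not called in either fit. Dtnb (101823485), beta-dystrobrevin, which is prominent in non-muscle tissues, had 17.8 ± 4.39 TPM in the control group and 20.3 ± 4.35 TPM in the cold group (SD, n = 4), and was higher in 4 of 4 pairs (edgeR log2 fold change 0.18, adjusted p = 0.999, or 0.132 with the block). Sntb2 (101824886), beta-2-syntrophin, averaged 14.4 ± 3.32 and 15.4 ± 2.1 TPM (SD, n = 4), with an edgeR log2 fold change of 0.024 (adjusted p = 0.999, or 0.770 with the block). Sntb1 was below Sntb2 in every library.

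The TPM ratio of Dtnb to Dtna was 0.991, 1.4, 4.96 and 3.41 in control replicates 1 to 4 and 4.37, 3.6, 8.03 and 8.19 in cold replicates 1 to 4. It was higher in the cold in 4 of 4 pairs, while cold replicate 2 and cold replicate 1 lay below control replicate 3. Dtna itself was lower in 4 of 4 pairs, so this rise is not evidence apart from its level. The mean difference was 2.58-fold, 1.37 on the log2 scale (exact two-sided permutation test p = 0.114, 0.257 when adjusted over the 3 ratios, and 0.125 by sign permutation within pairs, its smallest value).

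**Figure D2:**
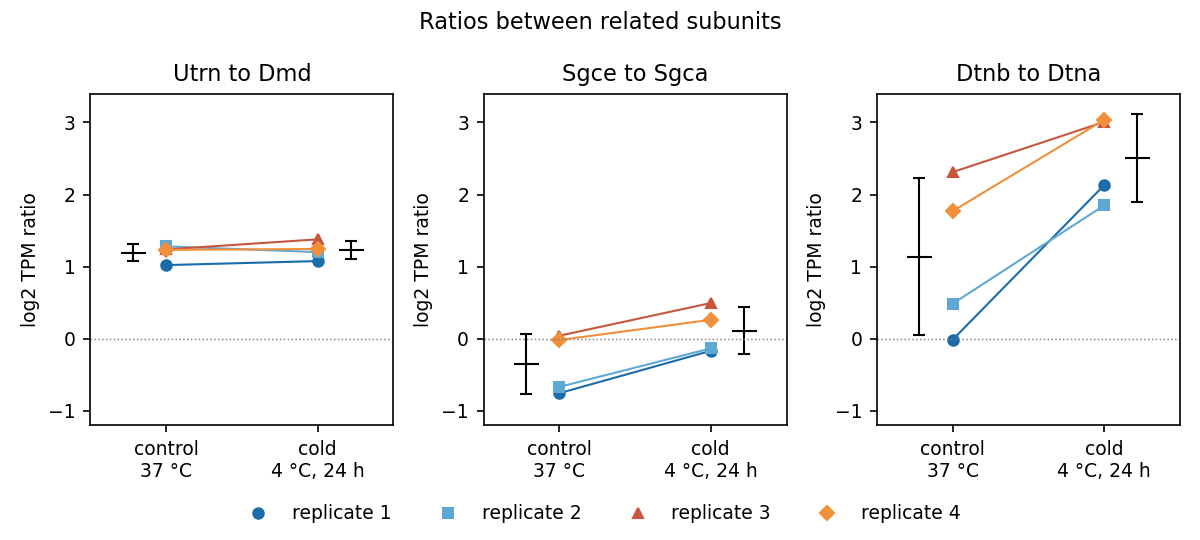
Log2 of the TPM ratio of related subunits (vertical axes) in each control and cold library, with lines joining equal replicate numbers and black bars for the mean ± SD of 4 libraries. The Utrn to Dmd ratio stays level, and the Sgce to Sgca and Dtnb to Dtna ratios rise in 4 of 4 pairs with overlapping groups.

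The members that were lower after cold exposure were also the ones that differed between replicates at 37°C, and Sspn differed between replicates without a call for cold exposure. In control libraries the mean of replicates 1 and 2 over that of replicates 3 and 4 was 2.33 for Dtna, 2.2 for Sntb1, 2.17 for Sspn, 1.52 for Sgca and 1.21 for Sgcb. The same ratio was 1.01 for Dag1, 0.952 for Dmd, 0.899 for Utrn and 0.862 for Sgcd. Fitted with edgeR within replicates 1 and 2 alone, the log2 fold changes were −1.47 for Dtna, −1.0 for Sntb1, −0.61 for Sgca and −0.32 for Sgcb, with adjusted p-values of 3.14e-08, 9.6e-07, 8e-06 and 0.00222. Within replicates 3 and 4 alone they were −0.77, −0.84, −0.32 and −0.092, with adjusted p-values of 0.336, 0.157, 0.59 and 0.997. All 4 genes were thus lower in both sets, with no call in the second, and the difference between the sets was not tested. The share of all genes called within each set was not computed. The summed early differentiation markers given above moved with the same libraries, and their part in the lower levels of these 4 genes was not tested.

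**Figure D3:**
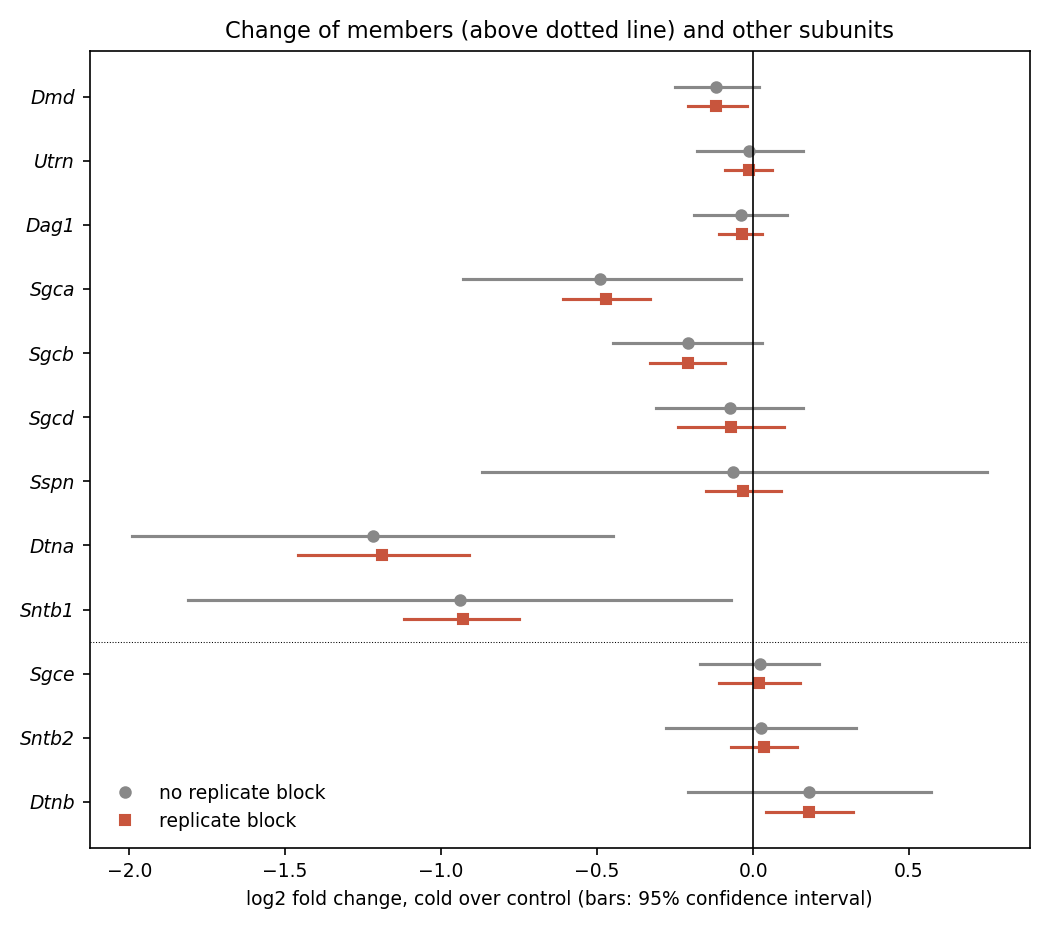
Log2 fold change of cold over control (horizontal axis) with its 95% confidence interval from edgeR, without (grey circles) and with (red squares) the replicate block, for the 9 members above the dotted line and 3 other subunits below it. Intervals of Dtna, Sntb1 and Sgca lie below 0 in both fits, and each interval is shorter with the block.

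Over the 9 members the median log2 fold change was −0.116, beside 0.0071 over all genes tested, and 9 of 9 estimates were negative (Utrn and Sspn turned positive with limma on log2 TPM), most of them with intervals that include 0 without the block. In TPM, 5 members were lower in 4 of 4 pairs (Dtna, Dag1, Sgca, Sgcb and Sntb1), where 10.5% of all genes were, and 0 members were higher in 4 of 4, where 12.8% of all genes were. All 9 members passed the filter on low counts, and none had counts with decimals, which arise where reads are divided between genes. The lowest count of any member in a library was 74, for Dtna in cold replicate 4. As a description, genes whose log2 CPM followed Dtna most closely over the 8 libraries were Actn2 (Pearson r 0.992), Tnnc2 (0.991), Usp20 (0.990) and Ldb3 (0.989). These points share the split of the replicates and the 2 conditions, and Actn2, Tnnc2 and Ldb3 encode proteins of the sarcomere.

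The rest of the pathway was taken from lists, of which 50 genes are reported here, 48 had values and 42 were tested. Without the block edgeR called 0 of the 42, beside 0.072% of all genes lower and 0% higher. At an unadjusted p under 0.05 it gave 3, beside 6.7% of all genes. DESeq2 called Cav3 as lower, where it called 0.924% of all genes as lower. With the block 3 were lower, where 4.07% of all genes were, and 1 was higher, where 1.26% were, and 38 were not called, with a median log2 fold change of −0.036 over the 42 in the fit without the block. The log2 fold changes of the called genes in replicates 1 and 2 alone were −2.34 for Cav3, −0.34 for Itga7, −0.28 for Dpm2 and 0.27 for Lama4. In replicates 3 and 4 alone they were −1.68, −0.25, −0.12 and 0.12, with edgeR adjusted p-values of 0.218, 0.303, 0.997 and 0.997. Of the 8 other subunits reported here, 3 were tested (Sgce, Dtnb and Sntb2) and 0 passed with or without the block or with DESeq2, also 0 at an unadjusted p under 0.05 without the block. Sntg1 was listed at 0 in all libraries, and Sntg2, Drp2 and Dytn did not pass the filter on low counts of the edgeR fit of all libraries. Sgcz had no values.

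Outside the cell, the 11 matrix ligands of dystroglycan (laminin chains, agrin, perlecan and others) held 10 tested genes. With the block 0 were lower, beside 4.07% of all genes, and 1 was higher, beside 1.26%. This was Lama4 (101834813), a laminin alpha chain of vessel and peripheral basement membranes, at 8.71 ± 1.39 TPM in the control group and 10.1 ± 0.681 TPM in the cold group (SD, n = 4), with a log2 fold change of 0.20 (edgeR adjusted p = 0.798) or 0.21 with the block (standard error 0.0563, adjusted p = 0.0353). The groups overlapped, and with the block in DESeq2 the adjusted p was 0.288.

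The enzymes that build the laminin-binding glycan on dystroglycan, or supply its sugar donors, numbered 18, of which 17 were tested. With the block 1 of the 17 was lower and 0 were higher, beside 4.07% and 1.26% of all genes. Dpm2 (101838306), a subunit of dolichol-phosphate mannose synthase, was at 384 ± 33.1 TPM in the control group and 340 ± 8.55 TPM in the cold group (SD, n = 4). All cold libraries were below all controls, as in 2.41% of all genes. Its log2 fold change was −0.20 (edgeR adjusted p = 0.62) or −0.19 with the block (standard error 0.0444, adjusted p = 0.0124). Dpm1, the catalytic subunit of the same enzyme, singled out after its values were seen, averaged 95.5 ± 2.3 and 106 ± 3.66 TPM (SD, n = 4). Its cold libraries were all above its controls, as in 2.27% of all genes. It did not pass the test (edgeR log2 fold change 0.13, adjusted p = 0.718, or 0.109 with the block), and decimal counts in each of the 8 libraries leave its level uncertain. The O-mannosyltransferases, fukutin and the Large enzymes were among the genes that passed in neither direction.

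Of the 9 cytoplasmic partners, 8 were tested. With the block 1 was lower and 0 were higher, beside 4.07% and 1.26% of all genes. Cav3 (101834069), the muscle caveolin, which binds dystroglycan, had 12.38, 9.03, 3.66 and 3.13 TPM in the control libraries and 2.84, 1.47, 0.7 and 1.38 TPM in the cold libraries. All cold libraries were below all controls, as in 2.41% of all genes, and replicates 1 and 2 were again the highest among the controls. Its log2 fold change was −2.16 (edgeR, standard error 0.555, adjusted p = 0.306), −2.15 with the block (standard error 0.2, adjusted p = 5.91e-07), and DESeq2 gave an adjusted p of 0.00821. Its counts were low, 8 to 143 per library. Nos1, the neuronal nitric oxide synthase that syntrophin anchors in mature fibres, was listed at 0 in all libraries.

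The list of the parallel laminin receptor and of proteases that can cleave dystroglycan held 4 genes, all tested. Itga7 (101827609), the integrin alpha 7 chain that binds laminin beside dystroglycan, was at 209 ± 31.2 TPM in the control group and 172 ± 23.7 TPM in the cold group (SD, n = 4). The groups overlapped, and its log2 fold change was −0.30 (edgeR adjusted p = 0.797) or −0.29 with the block (standard error 0.0348, adjusted p = 1.14e-05). Its partner chain Itgb1, at 458 ± 12.2 and 466 ± 8.89 TPM, did not pass the test in either fit.

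**Figure D4:**
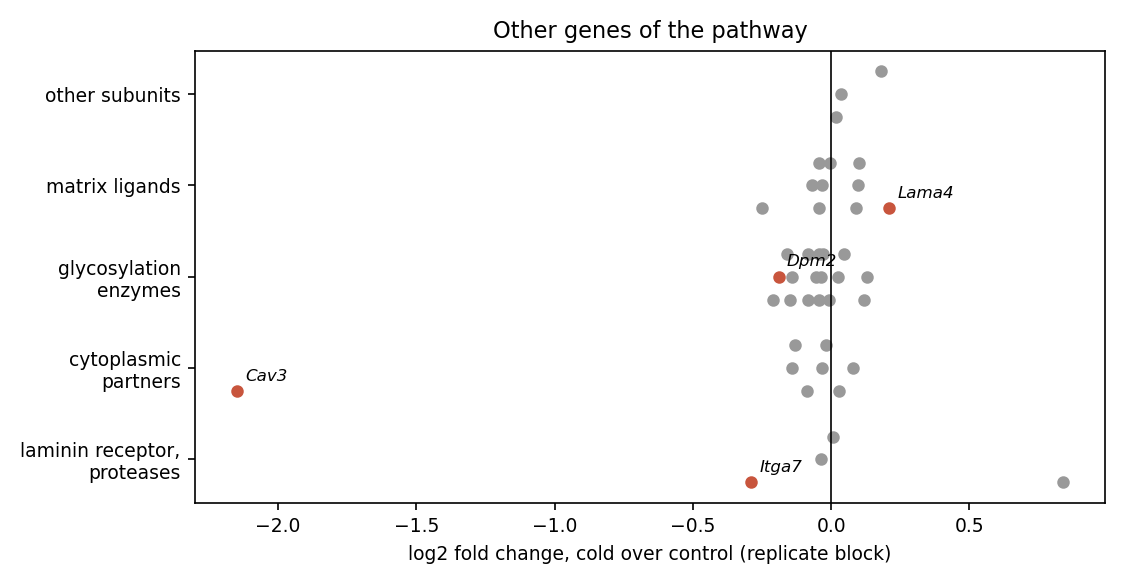
Log2 fold change of cold over control from edgeR with the replicate block (horizontal axis) for the 42 tested genes of the 5 pathway lists (rows), with 1 point per gene and a vertical offset only to part the points. Red points are the 4 genes with an adjusted p under 0.05, and the grey point farthest to the right is Mmp9, whose control mean was 0.295 TPM.

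Dmd, Dtna and other members are transcribed from several promoters, and Dmd makes short isoforms beside full-length dystrophin. RefSeq lists 14 transcripts for Dmd, 9 for Utrn and 26 for Dtna, which may differ from the annotation behind the deposited values. The deposited table gives 1 value per gene. The number of reads per unit of TPM rises with the mean length of the transcripts that the authors' program assigned, and it was compared as a measure chosen after the data were seen, with no test. For Dmd it was 100.3%, 101.1%, 100.1% and 98.4% of the control mean in control replicates 1 to 4 and 94.9%, 94.5%, 95.7% and 94.2% in cold replicates 1 to 4. Cold libraries were thus below all controls, with a mean of 94.8%, as in 0.897% of the 9591 genes measured, with 0.73% above all controls. Relative to Utrn, the reads per TPM of Dmd were 0.576 in control and 0.547 in cold libraries. The groups overlapped for the other 6 members measured, and the widest range was that of Utrn, 95.9% to 105.0% in the control libraries. Dtna and Sntb1 had under 100 counts in a library and were not measured. The reads were not at hand, so which transcripts of Dmd were present was not tested.

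**Figure D5:**
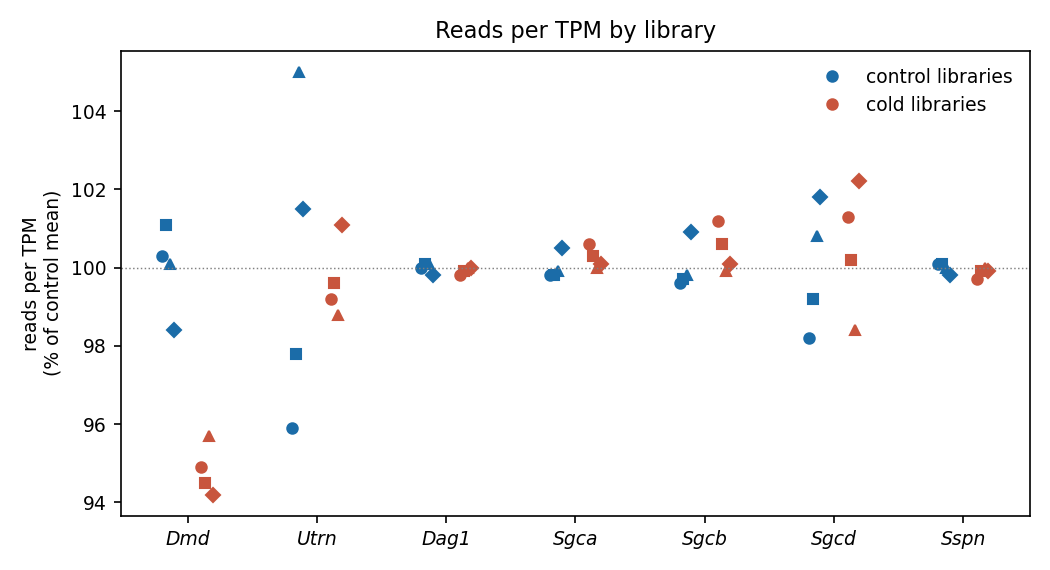
Reads per TPM as a percentage of the control mean (vertical axis, not from 0) for the 7 members with at least 100 counts in every library, with control libraries in blue and cold libraries in red, and circles, squares, triangles and diamonds for replicates 1 to 4. The cold libraries of Dmd lie between 94.2% and 95.7%, below its 4 control libraries.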

How the data were processed

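Poly(A) RNA was sequenced by BGI as paired-end reads of 150 bases. The submitters' processing notes name HISAT and HISAT2, and the counting program, genome build and annotation are not given in the sources used here. The deposited table holds expected counts made by the authors (96.4% to 96.6% whole per library), TPM values that the authors scaled within each library, and normalized counts, a signal that the authors scaled by 1 factor per library. All 17590 identifiers with values matched RefSeq, used only for names and numbers of transcripts. No sequence was at hand to print.

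Expected counts were rounded and fitted with edgeR 4.0.16 (R 4.3.3; filterByExpr, TMM, quasi-likelihood test of 4 cold against 4 control libraries), and p-values were Benjamini-Hochberg adjusted over the 12506 genes tested. Ratios of TPM were compared by exact permutation over 70 arrangements, where the smallest p is 0.0286. Scripts were checked on simulated counts. Same-numbered libraries correlated by 0.609 to 0.659 in their deviations from the group means across genes (4 pairs). Libraries of different numbers correlated by 0.432 to 0.591 within replicates 1 and 2 or within 3 and 4, and by −0.609 to −0.553 between these sets. Since every same-numbered pair correlated by over 0.1, the numbers, which come from the titles and column names, were taken to pair the libraries in a blocked fit. Libraries of different numbers within a set also passed this cut, so it does not tell which library pairs with which. Other alternatives were DESeq2 1.42.0, limma 3.58.1 on log2 TPM (pseudocount 0.1 or 1), other scalings and filters, and libraries left out. Figures were drawn with matplotlib 3.10.9.

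Named were the 9 members, other subunits, pathway genes with an adjusted p under 0.05 with or without the block, the genes most like the member of largest change (4 of the 5 by the rule), and markers by list. Members and lists, from which the genes of the ratios come, were chosen with earlier results of these data known. From the other subunits, 2 genes are not reported here and were left out of the list counts. Genes at low counts are limited by counting error, and reads carry no molecular identifiers.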

Additional observations from a re-analysis of the deposited data

How the results depend on the processing

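With edgeR and no block, 0 members passed the adjusted threshold with all 8 libraries or with any 1 of them left out. At the study's thresholds there were 1 with DESeq2, 1 with DESeq2 and the block, 1 with the block and 2 in replicates 1 and 2 alone, and between 0 and 1 over all fits leaving out a replicate. At an adjusted p under 0.05 these numbers were 1, 3, 4 and 4, and 0 to 4. For the other pathway genes they were 1, 3, 4 and 9, and 0 to 5. No share of all genes was computed for DESeq2 with the block, for replicates 1 and 2 alone or for the fits leaving out a replicate. Counts from those fits therefore cannot be set against a background. The members' median log2 fold change ranged from −0.271 to −0.089 when a replicate was left out, the lowest value being without control replicate 4, and was −0.054 and −0.053 with limma on log2 TPM, −0.224 without control replicate 3 and −0.212 without cold replicate 1.

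Of 23 alternative fits per member, 23 kept a negative sign for Dmd, Dtna, Sgca, Sgcb and Sntb1. Dtna passed an adjusted p of 0.05 in 8 of them, Sgca and Sntb1 in 7, Sgcb in 3 and the other members in 0. Signs turned in some fits for Utrn, Dag1, Sgcd and Sspn, which were called in none. With limma on log2 TPM (pseudocounts 0.1 and 1), Dmd was at −0.021 and −0.02, Utrn at 0.011 and 0.010 and Sspn at 0.009 and 0.007, and Sspn was at 0.141 in replicates 3 and 4 alone. With a replicate left out, Utrn ranged from −0.071 to 0.034, Dag1 from −0.088 to 0.004, Sgcd from −0.157 to 0.003 (down to −0.17 with the block) and Sspn from −0.271 to 0.197 (0.021 and 0.008 with the block and without replicate 1 or 2). With a library left out, the log2 ratio of Utrn to Dmd ranged from −0.03 to 0.08, turning without control replicate 1 or cold replicate 3 (0.1 from the deposited normalized counts), and those of Sgce to Sgca (0.33 to 0.59) and Dtnb to Dtna (0.98 to 1.76) kept their sign. The replicate block changed the call of Dtna, Sntb1, Sgca and Sgcb among the members and of Cav3, Itga7, Dpm2 and Lama4 among the pathway genes, and no other. The cause of these moves was not tested.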
